A study of Danio rerio with 6 samples.

Results

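The transcripts of 9 zebrafish genes for serine synthesis and folate one-carbon metabolism were followed across embryos that lack threonyl-tRNA synthetase (*tars*) and embryos in which a stress kinase was knocked down. The 9 genes were taken by symbol from the count tables and each symbol matched 1 gene: *phgdh*, *psat1*, *psph*, *shmt1*, *shmt2*, *mthfd2*, *mthfd1l*, *aldh1l2* and *mtr*, 9 of 34326 genes. The rule uses symbols and no measured value, though the 9 were chosen with earlier results of these data known. All 9 were above the minimum of 1 CPM (counts per 1000000 reads assigned to genes) on average over the libraries, as were 19194 genes in all. RNA was taken from total embryos at 36 hours post-fertilization (hpf), in 6 conditions with 1 library each. The *tars*-/- embryos are homozygous for a chemically induced nonsense mutation in *tars*, and their siblings from the same litters, labelled WT, served as controls. Whether these siblings include heterozygous carriers is not given in the sources used here. Each genotype was left uninjected, or received a morpholino (MO), an antisense oligonucleotide that blocks the transcript of its target, against *gcn2* or against *perk* at the one-cell stage. Embryos of the study were raised in egg water, and PTU was used to block pigment. No library came from embryos with a control morpholino, so knockdown and injection itself cannot be told apart, and how many embryos went into a library is not given in the sources used here. In RNA from whole embryos, fewer cells of a type and less RNA per cell cannot be told apart.

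Cells make serine from a glycolytic intermediate in a short pathway of Phgdh, Psat1 and Psph. Serine hydroxymethyltransferases then pass a carbon of serine to folate and leave glycine, and in mitochondria the carried carbon is oxidised and leaves as formate, which supplies purines, thymidylate and methyl groups in the cytosol. When an amino acid or its charged tRNA runs short, the kinase Gcn2 phosphorylates eIF2α, while Perk phosphorylates the same factor under endoplasmic reticulum stress. Either way translation of the transcription factor Atf4 goes up, and in mouse and human cells genes of serine synthesis and mitochondrial folate metabolism are known ATF4 targets. The comparison of the 6 conditions asks whether these genes differ with loss of Tars, and with Gcn2 or Perk knocked down.

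The libraries held 29949451 to 47516784 reads assigned to genes, and a single one of the 9 genes was counted 500 to 29029 times in a library. The *tars* transcript stood at 37.3, 21.3 and 33.9 CPM in the uninjected, *gcn2* MO and *perk* MO *tars*-/- libraries and at 71.6, 68.1 and 95.9 CPM in the matching sibling libraries, lower in all 3 *tars*-/- libraries as labelled. Markers of neurons, muscle, red cells, endothelium, skin, lens, hatching gland and replicating cells were detected in every library, the lowest at 5.22 CPM. The *tars*-/- *gcn2* MO and sibling *perk* MO libraries stood close together, with 67 genes 2-fold apart, against 246 to 1490 for the other pairs of libraries. Both had high sums of hatching gland markers (4 genes), 6304 and 5850 CPM against 1298 to 3148 CPM in the other 4 libraries. Both also had the lowest sums of neural markers, 533 and 457 CPM against 649 to 930 CPM in the others. Their red cell and endothelial sums were also the lowest, by smaller margins. The part of these differences in the results was not tested. With 1 library per condition, an interval beside a ratio is an exact Clopper-Pearson 95% interval given the library totals. It covers counting error only, not differences between batches of embryos or the choice of scaling. No p-value was computed for a single pair of libraries.

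In uninjected embryos all 9 genes stood higher in the mutant. Loss of Tars went with at least 2-fold higher transcript in 7 of the 9 genes, with *psat1* and *phgdh* furthest apart and *psph* and *mthfd1l* nearest to the siblings. Over all genes 1.11% were that much higher, and 0.568% were that much lower, among them none of the 9. The median log2 ratio of the 9 genes was 1.60, against -0.11 over all genes analysed. Added up, the 9 genes took 1915 CPM in *tars*-/- embryos and 634 CPM in siblings. In *tars*-/- embryos with *gcn2* MO the sum was 821 CPM, still above the 626 CPM of siblings with the same morpholino. With *perk* MO it was 2325 against 687 CPM. The high sums were thus those of the *tars*-/- embryos with no injection or with *perk* MO, as the plot of counts by library shows gene by gene.

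**Figure D1:**
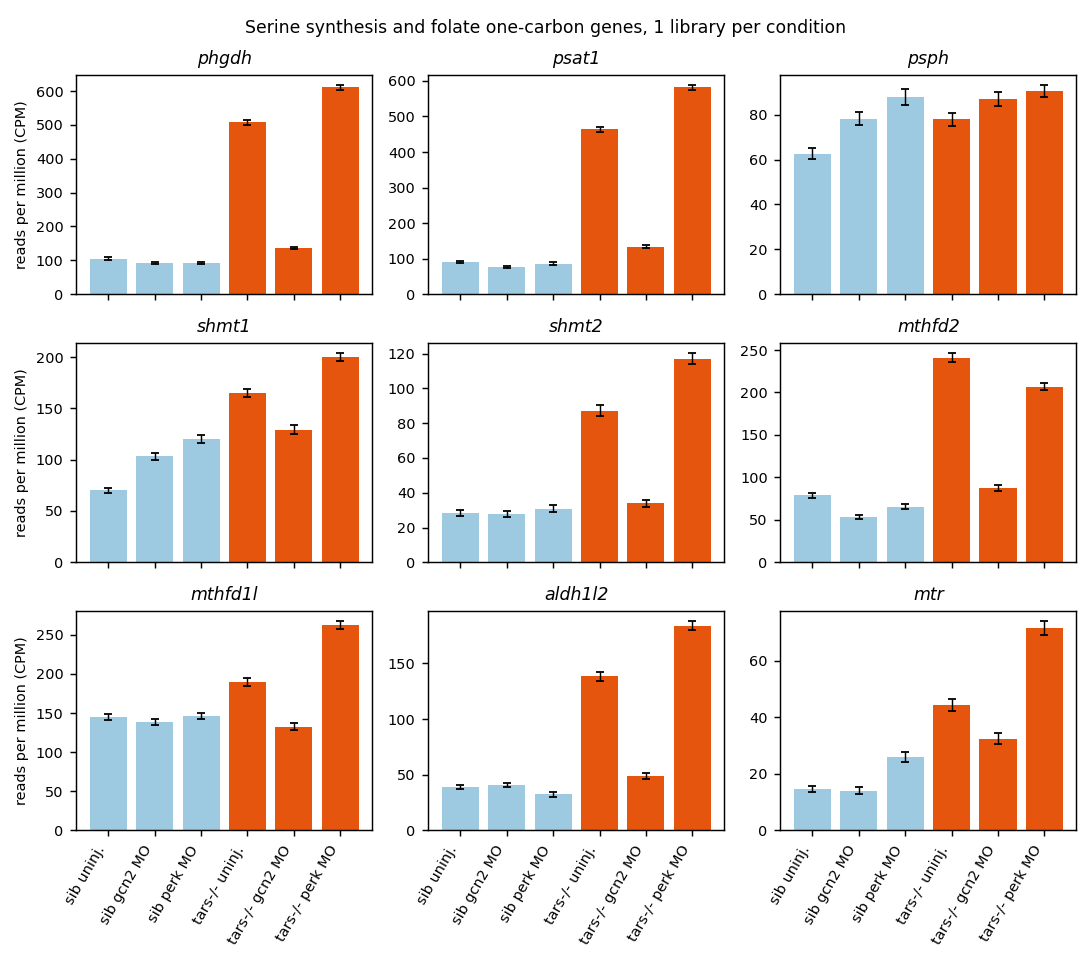
Scaled counts (CPM, vertical axis from 0, scaled for each gene) of the 9 genes in the 6 libraries, siblings (sib) in blue and tars-/- embryos in orange, with bars for the exact 95% Poisson interval of the count. For phgdh, psat1, shmt2, mthfd2 and aldh1l2 the uninjected and perk MO tars-/- libraries stand far above the other 4, while psph lies between 62.6 and 90.5 CPM in all 6.

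The first 2 enzymes of serine synthesis behaved alike. *phgdh*, whose product oxidises phosphoglycerate in the entry step of the pathway, stood at 508, 136 and 611 CPM in uninjected, *gcn2* MO and *perk* MO *tars*-/- embryos, and at 105, 92.4 and 92.7 CPM in the siblings. The siblings lay within a narrow range and every *tars*-/- library was above them, the *gcn2* MO library by the least. The *tars*-/- over sibling ratio was 4.82 (95% interval 4.66 to 4.99) without injection, 1.48 (1.41 to 1.55) under *gcn2* MO and 6.59 (6.34 to 6.86) under *perk* MO. *psat1*, for the transaminase that follows, stood at 463, 133 and 582 CPM in *tars*-/- embryos and at 90.3, 77.2 and 85.8 CPM in siblings. Its ratios were 5.13 (4.95 to 5.32), 1.72 (1.64 to 1.81) and 6.78 (6.51 to 7.06). Per length of transcript the *phgdh* and *psat1* levels kept nearly the same proportion in all libraries, 0.864 to 1.01 in FPKM (CPM divided by the gene length in kilobases).

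*psph*, for the phosphatase that releases serine in the last step, did not follow them. It stood at 78.0, 86.9 and 90.5 CPM in *tars*-/- embryos and at 62.6, 78.2 and 87.8 CPM in siblings, so that the genotypes overlapped. The ratio was 1.25 (1.18 to 1.32) without injection, 1.11 (1.05 to 1.17) under *gcn2* MO and 1.03 (0.981 to 1.08) under *perk* MO. Both morpholinos went with higher *psph* in siblings, by 1.25 (1.18 to 1.32) and 1.40 (1.33 to 1.48), which is as large as the difference between the uninjected genotypes. As a result the FPKM of *phgdh* was 4.45 and 4.61 times that of *psph* in uninjected and *perk* MO *tars*-/- embryos, and 0.720 to 1.15 times in the other 4 libraries.

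The 2 serine hydroxymethyltransferase genes differed from each other. *shmt2* codes for the mitochondrial enzyme and stood at 87.2, 34.0 and 117 CPM in *tars*-/- embryos and at 28.5, 27.9 and 30.7 CPM in siblings. Its sibling levels were nearly flat, and its ratios were 3.06 (2.86 to 3.28) without injection, 1.22 (1.12 to 1.33) under *gcn2* MO and 3.82 (3.56 to 4.10) under *perk* MO. *shmt1*, for the cytosolic enzyme, stood at 165, 129 and 200 CPM in *tars*-/- embryos and at 70.2, 103 and 120 CPM in siblings. Here the siblings were spread out, with the uninjected library lowest and all 3 *tars*-/- libraries above the highest sibling library. The *shmt1* ratios were 2.35 (2.24 to 2.46), 1.25 (1.20 to 1.31) and 1.66 (1.60 to 1.72). The 2-fold call of *shmt1* rests on the uninjected sibling library, since the log2 ratio of 1.23 became 0.67 with the *gcn2* MO and 0.45 with the *perk* MO sibling library as denominator, a choice made after seeing the data.

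Among the mitochondrial folate enzymes, *aldh1l2* and *mthfd2* stood far higher in the mutant and *mthfd1l* did not. *mthfd2*, for the dehydrogenase and cyclohydrolase that oxidises the carbon taken from serine, stood at 241, 87.3 and 207 CPM in *tars*-/- embryos and at 78.8, 53.4 and 65.2 CPM in siblings. It was the only one of the 9 genes with less transcript in *perk* MO than in uninjected *tars*-/- embryos. Its ratios were 3.06 (2.94 to 3.19) without injection, 1.64 (1.54 to 1.73) under *gcn2* MO and 3.17 (3.02 to 3.33) under *perk* MO. *aldh1l2*, for the mitochondrial enzyme that oxidises formyl-tetrahydrofolate, stood at 138, 48.8 and 184 CPM in *tars*-/- embryos and at 39.2, 40.8 and 32.4 CPM in siblings. The *gcn2* MO *tars*-/- library lay close to the siblings, and the ratios were 3.53 (3.34 to 3.74), 1.20 (1.11 to 1.29) and 5.69 (5.32 to 6.08).

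*mthfd1l*, for the synthetase that releases formate, stood at 190, 133 and 263 CPM in *tars*-/- embryos and at 145, 138 and 146 CPM in siblings. The *gcn2* MO *tars*-/- library was the lowest of the 6, and the genotypes overlapped. The ratio was 1.31 (1.27 to 1.36) without injection, 0.960 (0.921 to 1.00) under *gcn2* MO and 1.80 (1.73 to 1.86) under *perk* MO. The *mthfd1l* ratio with *gcn2* MO thus included no difference within counting error.

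*mtr*, for the cobalamin-dependent enzyme that makes methionine from homocysteine with a methyl group of folate, was the least abundant of the 9 per length in each library. It stood at 44.3, 32.4 and 71.6 CPM in *tars*-/- embryos and at 14.6, 14.1 and 25.9 CPM in siblings. The *perk* MO library was the highest in either genotype, as it was for *psph*, *shmt1*, *shmt2* and *mthfd1l*. The ratios of 3.03 (2.75 to 3.34) without injection, 2.29 (2.06 to 2.55) under *gcn2* MO and 2.76 (2.55 to 2.99) under *perk* MO lay closer together than those of the other 6 genes that were at least 2-fold higher without injection. With the *perk* MO sibling library in place of the uninjected one, the log2 ratio of *mtr* in uninjected embryos went from 1.57 to 0.76, below 2-fold.

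Read within an injection state, the 9 genes as a set were higher in *tars*-/- embryos with *perk* MO and less so with *gcn2* MO. In the *gcn2* MO pair 1 of the 9 genes, *mtr*, was at least 2-fold higher in *tars*-/- embryos, against 1.85% of all genes, and the median log2 ratio of the 9 was 0.32 (all genes 0.02). In the *perk* MO pair 6 of the 9 were, all but *psph*, *shmt1* and *mthfd1l*, against 3.39% of all genes, with a median log2 ratio of 1.66 (all genes 0.00). The lowest of the 3 *tars*-/- libraries was above the highest of the 3 sibling libraries for 7 of the 9 genes, all but *psph* and *mthfd1l*, and for 3.61% of all genes.

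**Figure D2:**
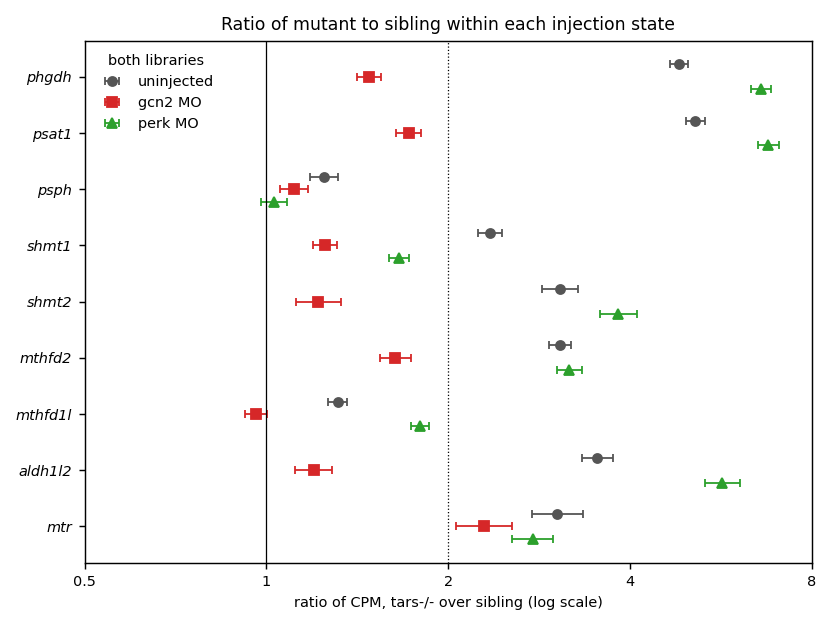
Ratio of CPM in tars-/- over sibling embryos (horizontal log axis) for the 9 genes with both libraries uninjected (grey circles), both with gcn2 MO (red squares) or both with perk MO (green triangles). Bars are exact 95% intervals for counting error, the solid line marks equal levels and the dotted line 2-fold. Except for psph, the gcn2 MO ratio is the lowest of the 3, from 0.960 for mthfd1l to 2.29 for mtr.

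Within the mutant, *gcn2* MO went with lower transcript of 8 of the 9 genes. At least 2-fold lower than in uninjected *tars*-/- embryos were 5 of them, *phgdh* at 0.269 (0.260 to 0.278) of the uninjected level, *psat1* at 0.287 (0.277 to 0.297), *aldh1l2* at 0.353 (0.333 to 0.374), *mthfd2* at 0.362 (0.347 to 0.378) and *shmt2* at 0.390 (0.364 to 0.418). Over all genes 2.68% were that much lower and 2.97% that much higher, and the median log2 ratio was -1.35 for the 9 genes and 0.09 for all genes. The other members lay nearer to the uninjected level, *mthfd1l* at 0.70 (0.673 to 0.727), *mtr* at 0.731 (0.675 to 0.791), *shmt1* at 0.784 (0.754 to 0.816) and *psph* at 1.12 (1.06 to 1.18). This comparison shares the uninjected *tars*-/- library with that of the uninjected genotypes, so the high level there enters both. With the *perk* MO *tars*-/- library as denominator, 6 of the 9 genes were at least 2-fold lower, *mtr* being the one added. Of all 19194 genes, 715 were 2-fold apart in either direction between those libraries. The summed hatching gland markers were 6304 CPM in the *gcn2* MO and 1554 CPM in the uninjected *tars*-/- library, and their part in these ratios was not tested.

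In siblings the same morpholino left most of the 9 genes near the uninjected level. None of the 9 was 2-fold apart between *gcn2* MO and uninjected siblings, against 1.86% of all genes. At that share, none among 9 genes does not set the members apart from all genes. The largest shifts were *mthfd2* at 0.678 (0.640 to 0.718) and *shmt1* at 1.47 (1.40 to 1.55) of the uninjected level. To set both genotypes side by side, the *tars*-/- over sibling ratio with *gcn2* MO was divided by the same ratio without injection. The quotient was 0.306 (0.289 to 0.324) for *phgdh*, 0.335 (0.316 to 0.356) for *psat1*, 0.339 (0.309 to 0.371) for *aldh1l2* and 0.398 (0.357 to 0.444) for *shmt2*. The other 5 genes were closer to 1, with *shmt1* at 0.532, *mthfd2* at 0.534, *mthfd1l* at 0.732, *mtr* at 0.755 and *psph* at 0.892. These intervals hold only counting error, and whether the difference between genotypes exceeds that between litters was not testable with 1 library per condition.

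With *perk* MO the 9 genes lay nearer to the uninjected level than with *gcn2* MO in *tars*-/- embryos, but not in siblings. Their median absolute log2 ratio to uninjected embryos was 0.33 with *perk* MO and 1.35 with *gcn2* MO in *tars*-/- embryos. In siblings it was 0.27 and 0.19. In *tars*-/- embryos none was 2-fold from the uninjected level, against 1.28% of all genes, and 8 of the 9 were higher, from 1.16 (1.11 to 1.22) for *psph* to 1.62 (1.52 to 1.72) for *mtr*, with *mthfd2* at 0.858 (0.833 to 0.883). In siblings none of the 9 was 2-fold apart, against 7.76% of all genes, in the pair of libraries that differed most of all. The highest sibling values were *mtr* at 1.78 (1.59 to 1.98) and *shmt1* at 1.71 (1.63 to 1.80) of the uninjected level, and the lowest was *aldh1l2* at 0.826 (0.761 to 0.895). At shares of 1.28% and 7.76%, finding none among 9 genes does not set the members apart from all genes. Of the other members, *phgdh*, *psat1* and *shmt2* were at 0.881, 0.95 and 1.08 of the uninjected level. *mthfd2*, *mthfd1l* and *psph* were at 0.827, 1.01 and 1.40.

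Of the zebrafish genes for Atf4, *atf4b* did not have the pattern of the enzymes, while *atf4a* had part of it. The *atf4b* transcript stood at 745, 792 and 661 CPM in uninjected, *gcn2* MO and *perk* MO *tars*-/- embryos and at 303, 212 and 620 CPM in siblings. It was as high in *tars*-/- embryos with *gcn2* MO, where *phgdh* and *psat1* were low, as in the other *tars*-/- libraries, and high too in siblings with *perk* MO. *atf4a* stood at 864, 708 and 825 CPM in *tars*-/- embryos and at 518, 455 and 654 CPM in siblings. Every *tars*-/- library was above every sibling library, and the *gcn2* MO library was the lowest of each genotype. The same order held for *phgdh*, *psat1*, *shmt2*, *mthfd2* and *mtr*. The *atf4a* log2 ratio of *gcn2* MO to uninjected *tars*-/- embryos was -0.29, against a median of -1.35 for the 9 members. Atf4 is controlled largely at translation, which counts of RNA do not measure.

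The 3 injection states were also used as the 3 libraries of each genotype in one fit across all genes, with the injection as a term. Here a genotype difference that a morpholino changes adds to the spread. With edgeR's quasi-likelihood test and Benjamini-Hochberg adjustment no gene passed an adjusted p of 0.05 (0%), and none of the 9. At an unadjusted p under 0.05 edgeR had 669 of 19194 genes, a smaller share than 0.05. Among them were 7 of the 9 members, all but *psph* and *mthfd1l*. *mtr* came closest in edgeR, with a log2 fold change of 1.46 (adjusted p = 0.183). It was higher in *tars*-/- embryos in 3 of 3 injection states, as was every other member but *mthfd1l*. *mthfd2* followed at 1.37 (adjusted p = 0.310 in edgeR), *psat1* at 2.02 (adjusted p = 0.384) and *phgdh* at 1.91 (adjusted p = 0.486).

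DESeq2 on the same design called 191 genes (0.995%) and 6 of the 9, *phgdh*, *psat1*, *shmt2*, *mthfd2*, *aldh1l2* and *mtr*. Its estimate for *mtr* was 1.45 ± 0.21 (SE, adjusted p = 3.58e-09) and for *psat1* 2.02 ± 0.33 (SE, adjusted p = 6.07e-07), while *shmt1* at 0.79 ± 0.24 missed the threshold (adjusted p = 0.0708). The calls therefore depend on the tool. In edgeR they also depend on which injection pairs are included. Without the *gcn2* MO pair 285 of 19194 genes and 7 of the 9 passed, and without the *perk* MO pair 133 genes and 2 of the 9. Leaving out a pair also leaves fewer libraries per genotype. Without the uninjected pair no gene passed.

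Genes for the same step in different compartments were compared per length of transcript, in FPKM. The mitochondrial *shmt2* was at 0.627, 0.312 and 0.696 of cytosolic *shmt1* in uninjected, *gcn2* MO and *perk* MO *tars*-/- embryos and at 0.481, 0.320 and 0.302 in siblings. The cytosolic gene was the more abundant in all 6 libraries. *aldh1l2* was at 3.19, 1.82 and 3.26 times its cytosolic paralog *aldh1l1* in *tars*-/- embryos, and at 1.26, 1.47 and 1.49 times in siblings. *mthfd2* was at 3.33, 1.72 and 2.06 times *mthfd1l*, the next enzyme in mitochondria, in *tars*-/- embryos and at 1.43, 1.01 and 1.17 times in siblings.

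**Figure D3:**
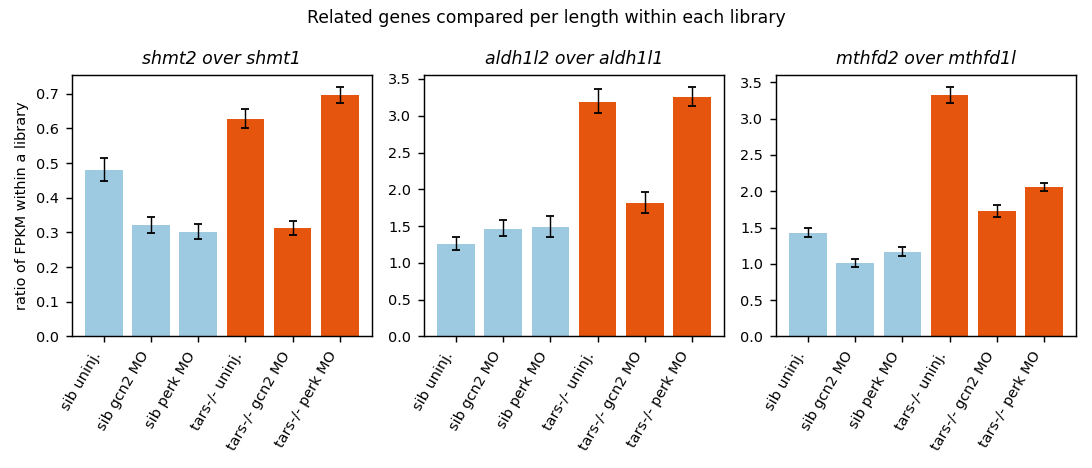
Ratio of FPKM between related genes within each library (vertical axes from 0), mitochondrial shmt2 over cytosolic shmt1, mitochondrial aldh1l2 over cytosolic aldh1l1, and the consecutive mitochondrial enzymes mthfd2 over mthfd1l, with siblings (sib) in blue, tars-/- embryos in orange and bars for the 95% counting interval. The aldh1l2 ratio is 3.19 and 3.26 in uninjected and perk MO tars-/- embryos and at most 1.82 elsewhere.

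In uninjected embryos the other paralog and partner genes lay nearer to the sibling level than the members that were at least 2-fold higher. *mthfd2l*, a paralog of *mthfd2*, was at 0.408 to 0.648 FPKM in all 6 libraries, where *mthfd2* was at 22.4 to 101 FPKM, and its uninjected ratio was 0.934 (0.673 to 1.29). *aldh1l1* had a ratio of 1.39 (1.30 to 1.49) in uninjected embryos, against 3.53 for *aldh1l2*. With *perk* MO *aldh1l1* stood at 74.8 CPM in *tars*-/- embryos and 28.8 CPM in siblings, and with *gcn2* MO at 35.7 and 36.9 CPM. *mthfd1b*, for the cytosolic enzyme with several folate activities, had 0.856 (0.809 to 0.906), *gldc* of the glycine cleavage system 1.42 (1.27 to 1.59) and *mtrr*, for the reductase that restores Mtr, 1.20 (1.03 to 1.39). How reads that match several genes were counted is not given in the sources used here, so values of close paralogs are uncertain to that extent.

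Most of the wider one-carbon network was near the level of the siblings. Of 49 other genes listed for cytosolic and mitochondrial folate steps, glycine cleavage, folate uptake, the methionine cycle, transsulfuration, methyl donors and purine synthesis, 45 could be analysed. In uninjected embryos 5 of the 45 were at least 2-fold higher in the mutant (all genes 1.11%) and none was 2-fold lower (all genes 0.568%), with a median log2 ratio of 0.09. The 5 were *mat2ab*, *cbsb*, *cth*, *fpgs* and *gnmt*. The 6 genes of purine synthesis, which uses formyl folate, had log2 ratios between -0.22 and 0.39. The 7 genes of cytosolic folate steps leaned the other way from the members. Their median log2 ratio was -0.49, and only 1 of them, *aldh1l1*, was above the sibling level.

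*mat2ab*, for an enzyme that makes S-adenosylmethionine, stood at 145, 31.7 and 162 CPM in uninjected, *gcn2* MO and *perk* MO *tars*-/- embryos and at 15.2, 11.2 and 18.7 CPM in siblings. Its uninjected ratio of 9.48 (8.71 to 10.3) was above that of any of the 9 members. *cbsb* and *cth*, for the transsulfuration enzymes that join serine with homocysteine and cleave the product to cysteine, had uninjected ratios of 4.09 (3.92 to 4.26) and 3.33 (3.10 to 3.59). *cth* stood at 82.6, 34.2 and 112 CPM in *tars*-/- embryos and at 24.8, 28.6 and 29.7 CPM in siblings, high in the same libraries as *shmt2*.

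*fpgs*, for the synthetase that adds glutamates to folate and keeps it in the cell, had a ratio of 3.17 (2.89 to 3.48) and *gnmt*, for glycine methyltransferase, 2.61 (2.45 to 2.78). The lowest ratio of the 45 was that of *mthfd1a*, which stood at 8.60, 1.80 and 3.22 CPM in *tars*-/- embryos and at 14.1, 6.70 and 1.60 CPM in siblings, with 0.612 (0.530 to 0.705) in the uninjected pair. *mthfd1a* was low in both the *tars*-/- *gcn2* MO and sibling *perk* MO libraries, the pair that stood close together across all genes.

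With *gcn2* MO in both genotypes 2 of the 45 were at least 2-fold higher in *tars*-/- embryos (all genes 1.85%), *mat2ab* and *fpgs*, and 3 were 2-fold lower (all genes 1.17%). With *perk* MO 6 were higher (all genes 3.39%) and 1 lower (all genes 2.01%). Between *gcn2* MO and uninjected *tars*-/- embryos 5 of the 45 were at least 2-fold lower, *mat2ab*, *mthfd1a*, *ftcd*, *cth* and *gnmt* (all genes 2.68%), and none was 2-fold higher (all genes 2.97%). The median log2 ratio of the 45 there was 0.05, against -1.35 for the 9 members. *ftcd*, like *mthfd1a*, was low in both the *tars*-/- *gcn2* MO and sibling *perk* MO libraries, at 7.77 and 7.25 CPM. It was not higher in uninjected *tars*-/- embryos than in uninjected siblings, at 20.5 and 25.1 CPM.

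**Figure D4:**
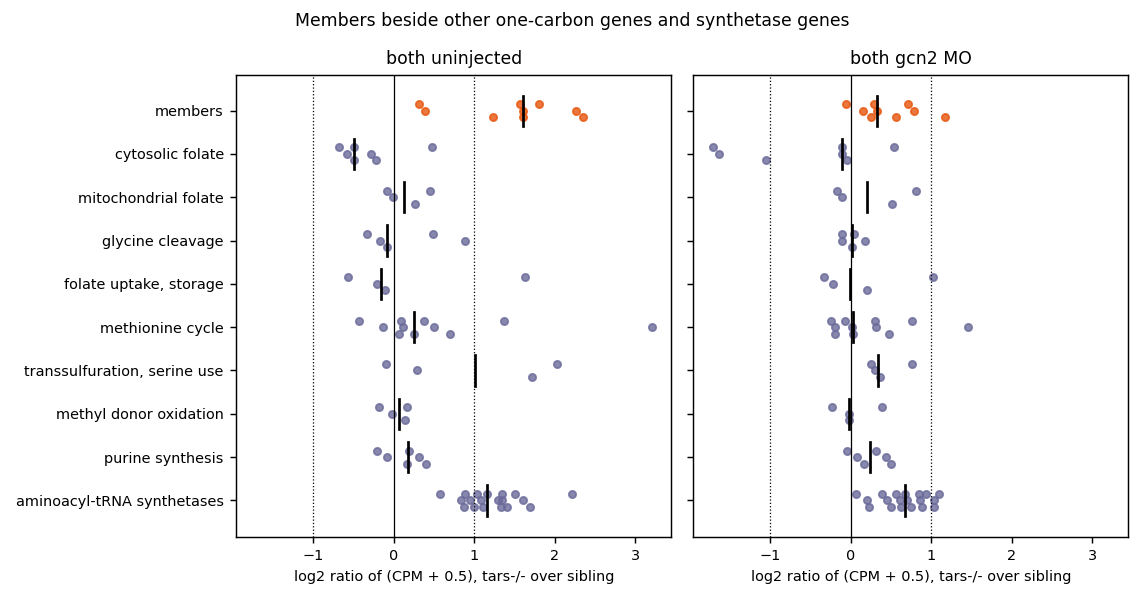
Log2 ratio of CPM with 0.5 added, tars-/- over sibling embryos, for the 9 members (orange), 8 groups of other one-carbon genes and the cytosolic aminoacyl-tRNA synthetases (both purple), uninjected on the left and gcn2 MO on the right. Each point is a gene, the black bar the group median, the solid line equal levels and the dotted lines 2-fold. The medians of the members are 1.60 and 0.32, and those of the 19 synthetase genes 1.16 and 0.68.

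The genes for the other cytosolic aminoacyl-tRNA synthetases, the family of Tars, were also higher in the mutant. Of 19 analysed, 13 were at least 2-fold higher in uninjected *tars*-/- embryos (all genes 1.11%) and none lower, with a median log2 ratio of 1.16. With *gcn2* MO 3 of 19 were (median 0.68, all genes 1.85%) and with *perk* MO 7 of 19 (median 0.98, all genes 3.39%). In siblings with *perk* MO 2 of the 19 were at least 2-fold above the uninjected level, as were 479 of all 19194 genes. The median log2 ratio of the 19 was 0.66 there, against 0.02 for the 9 members. Between *gcn2* MO and uninjected *tars*-/- embryos their median log2 ratio was -0.47, against -1.35 for the 9 members.

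Over the 6 libraries, 5 genes outside the list followed the mean profile of the members most closely among 1851 genes with at least 5 CPM on average and at least 2-fold between their lowest and highest library. They were *reep5* (r = 0.998), the alanyl-tRNA synthetase gene *aars* (r = 0.998), the asparagine synthetase gene *asns* (r = 0.997), *snap23.2* (r = 0.996) and *yme1l1a* (r = 0.996). *asns* stood at 223, 88.2 and 298 CPM in uninjected, *gcn2* MO and *perk* MO *tars*-/- embryos and at 51.0, 53.9 and 69.8 CPM in siblings. *aars* stood at 748, 378 and 1033 CPM in *tars*-/- embryos and at 246, 247 and 277 CPM in siblings. These correlations describe 6 points, 2 of them high in all 5 genes. Among the members, each set against the mean of the other 8, r over the 6 libraries ran from 0.993 for *psat1* and *shmt2* through 0.864 for *shmt1* to 0.407 for *psph*.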

How the data were processed

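RNA from total embryos was sequenced on an Illumina HiSeq platform. Per the labels and the study's methods, the authors aligned reads with HISAT2 2.0.5 to the genome build GRCz10 and counted them per gene with HTSeq. The submitters' processing notes also name SAMtools 1.7. The deposited tables hold raw read counts per gene, a gene length and FPKM. The FPKM values equal count over length and library total. No row lacked a gene identifier.

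Counts were divided by the library total (CPM), with 0.5 CPM added for log2 ratios. A gene was kept if it averaged 1 CPM or more over the 6 libraries. A gene counted as higher or lower at 2-fold. The genotype fit used edgeR 4.0.16 (R 4.3.3), with DESeq2 1.42.0 as an alternative. Python 3.11.15 and scipy 1.17.1 gave the exact 95% intervals. Both were tested on simulated data. For the fit these data held no morpholino effect, so they do not cover a genotype difference that a morpholino changes. Named were all 9 members, other one-carbon genes at least 2-fold apart in the uninjected pair, those with the highest and lowest ratio, paralog or partner genes, *atf4a*, *atf4b* and the 5 genes most like the members. The *gcn2* MO lower genes were also named, after their values were seen. The members and lists were chosen with earlier results of these data known. The files give no positions or sequences. 1 gene of the named set is not reported here. The alternatives were other scalings, pseudocounts, minimums, thresholds, libraries as denominator and leaving out an injection pair.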

Additional observations from a re-analysis of the deposited data

Results flagged for a closer look

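For 4 combinations of gene and morpholino the injected over uninjected ratio lay on opposite sides of 1 in the 2 genotypes, with counting intervals that left out 1. The difference itself was not tested, since each condition had 1 library. For *phgdh*, *perk* MO went with 1.20 of the uninjected level in *tars*-/- embryos and 0.881 in siblings, a quotient of 1.37. For *psat1* the values were 1.26 and 0.95, a quotient of 1.32. Its sibling interval of 0.902 to 0.999 only just left out 1. The intervals use library totals, and no other scaling was applied to them. In that sibling pair TMM scaling moved the median log2 ratio of all genes from -0.04 to 0.02. The *psat1* log2 ratio by library totals was only -0.07, so its flag depends on the scaling. *aldh1l2* had 1.33 in *tars*-/- embryos and 0.826 in siblings with *perk* MO, a quotient of 1.61. *shmt1* went the other way with *gcn2* MO, at 0.784 in *tars*-/- embryos and 1.47 in siblings, a quotient of 0.532.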

How the results depend on the processing

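Scaling by edgeR's TMM factors moved the median log2 ratio of all genes in the uninjected pair from -0.11 to 0.00, and the genes 2-fold higher and lower from 213 and 109 to 262 and 58. For *gcn2* MO over uninjected *tars*-/- embryos the same scaling moved 570 higher and 515 lower to 416 and 692. The number of members past 2-fold stayed the same in all 7 pairs of libraries under TMM, DESeq2 size factors, 0.1 or 2 CPM added, and a mean of at least 5 CPM or no minimum. Their ratios were less stable. Under TMM 21 member log2 ratios left their counting interval and 42 did not, and under DESeq2 size factors 20 did and 43 did not. For *phgdh* in the uninjected pair TMM moved the log2 ratio from 2.26 to 2.38. Past 1.5-fold there were 3 members in the *gcn2* MO pair and 8 in the *perk* MO pair, against 1471 and 2173 of 19194 genes. Between *perk* MO and uninjected embryos there was 1 in *tars*-/- embryos and 2 in siblings, against 1594 and 4581 genes. The counts between *perk* MO and uninjected embryos do not set the members apart from all genes. Genes 2-fold higher were 213, 339 or 789 with the uninjected, *gcn2* MO or *perk* MO sibling library as denominator, and members 7, 6 or 5, a choice made after seeing the data. Only *psph* changed sign there, and again with the *perk* MO library as denominator for *gcn2* MO *tars*-/- embryos, where 6 members and 390 genes were 2-fold lower. Counts over all genes, in the order of pairs uninjected, *gcn2* MO, *perk* MO (higher), *gcn2* MO in *tars*-/- (lower), and *perk* MO in *tars*-/-, *gcn2* MO and *perk* MO in siblings (either), were 213, 355, 651, 515, 246, 357 and 1490. They became 155, 192, 358, 303, 120, 167 and 860 with 2 CPM added, 167, 208, 421, 340, 133, 200 and 957 at a mean of at least 5 CPM, and 555, 1471, 2173, 1576, 1594, 1981 and 4581 at 1.5-fold. With 0.1 CPM added the fifth and the sixth became 414 and 540.

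In the genotype fit DESeq2 called 191 genes and 6 members, and edgeR with no abundance minimum called 2 genes and no member. Leaving out 1 injection pair gave 0 (without uninjected) to 285 genes (without *gcn2* MO) and 0 to 7 members, with 133 genes and 2 members without *perk* MO. The fit pairs the genotypes by injection, and without injection as a replicate block edgeR called 0 genes (749 at an unadjusted p under 0.05) and 0 members.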
